A study of Rattus norvegicus with 12 samples.

Results

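Alpha-2-macroglobulin and 9 other secreted plasma proteins of the acute phase response, which the liver makes in response to inflammation, were followed in cultured rat hepatocytes given a glucocorticoid. The 10 genes are A2m, Orm1, Hp, Hpx, Crp, Lbp, Cp, Fga, Fgb and Fgg. They are 10 of 26542 gene names on the probes tested, and were found on the array by the gene name or description that the array files give, which named 19 of the 41012 probes, between 1 and 4 for each gene. The cells were hepatocytes isolated by collagenase perfusion from Sprague-Dawley rats aged 11 weeks, plated on collagen, kept without serum before treatment, and exposed for 6 h to 100 nM dexamethasone (the labels write "nm"), a synthetic glucocorticoid, or to its vehicle, 0.01% ethanol. By the titles the 12 samples formed 4 groups of 3, which were male dexamethasone, male vehicle, female dexamethasone and female vehicle, and each sample had its own 1-colour Agilent array. The labels number the replicates 1 to 3 in each group but name no separate animals or cultures behind the numbers, so the p-values measure only how these samples vary, and that variation may be technical. A separate sex label reads male for all 12 samples, and sex was taken from the titles.

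Acute phase proteins are plasma proteins whose production by hepatocytes changes during inflammation. Interleukin-6 and related cytokines, acting through the shared receptor subunit that Il6st encodes and through the transcription factor STAT3, drive A2m and the 3 fibrinogen chains, while interleukin-1 and tumour necrosis factor add NF-kappaB and C/EBP factors for genes such as Orm1 and Crp. Glucocorticoids act with these cytokines on many of the same genes. In the rat, A2m is the classical strongly inducible acute phase protein, and the encoded macroglobulin traps proteases of many kinds.

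A2m was measured by 2 probes of 60 bases, both named or described as alpha-2-macroglobulin. The stretch that carries the largest response described below is given for each, since both probes gave that response and share no run of bases longer than 5. The first lies at chr4:158398254-158398313 of the rat build rn3, as the array files give it, and the files give no position for the second. What lies at a position is given here by gene name alone. The first 30 bases of each probe were as follows.
A2m probe A_43_P14162: tgaataagaagtgtttcgccagagccctga
A2m probe A_44_P107370: gctttcctggaaatttcttttcctgtcatt

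Fgb, the fibrinogen beta chain, was measured by 3 probes that did not give the same result. Their first 30 bases are shown for that reason. Probe A_43_P10037 lies at chr2:174718336-174718395 (rn3), probe A_44_P1044835 spans chr2:174718613-174718854 (rn3) on the same minus strand, and the files give no position for probe A_44_P226859.
Fgb probe A_43_P10037: tcccccaagcatagactttcagccttctat
Fgb probe A_44_P1044835: caacggcatgttcttcagcacctacgacag
Fgb probe A_44_P226859: atgatggtgtagtatggatgaattggaagg

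Cp, which encodes the copper-carrying ferroxidase ceruloplasmin, has 2 probes that overlap on the plus strand of chr2, A_44_P404836 at chr2:105074592-105074651 and A_43_P11448 at chr2:105074632-105074691 (both rn3). Capitals mark the 20 bases they share, out of 60 in each. The second Hp probe, at chr19:39450602-39450661 (rn3, minus strand) for the haemoglobin scavenger haptoglobin, is described from a genomic record. Capitals in it mark the letters GTGAGT, which follow the first 39 bases of the probe.
Cp probe A_44_P404836: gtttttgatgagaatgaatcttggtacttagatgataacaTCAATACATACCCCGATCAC
Cp probe A_43_P11448: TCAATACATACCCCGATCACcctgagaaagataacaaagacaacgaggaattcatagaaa
Hp probe A_44_P411131: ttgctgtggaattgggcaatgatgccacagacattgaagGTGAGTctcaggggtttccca

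The 3 fibrinogen genes lie next to each other in the genome and their products form 1 protein, so the 250 bases before each start are shown together, from RefSeq on build GRCr8. Capitals mark 2 short patterns, CTGGGAA, a core letter pattern known from interleukin-6 response elements of rat A2m and fibrinogen genes, and TTCNNNGAA, the general STAT pattern, both searched on both strands. Fgg held CTGGGAA at 169 to 163 and at 61 to 55 bases before its start. Fga held TTCNNNGAA at 242 to 234 bases before its start, and Fgb held TTCNNNGAA at 223 to 215 and CTGGGAA at 152 to 146. Of all 33469 promoters in the table, 9.56% held CTGGGAA and 7.67% held TTCNNNGAA in the same 250 bases. Promoters were given for 7 of the 10 genes, all but A2m, Hp and Lbp, and 2 of the 7 held each pattern. A match is a description of letters, not of a factor at work. The glucocorticoid half-site letters TGTTCT were in 1 of the 7, Crp, and in 17.5% of all promoters, and the C/EBP-like letters TTGCNNAA were in 5 of the 7 and in 9.22% of all.
Fgg promoter, chr2:170652833-170653082, plus strand: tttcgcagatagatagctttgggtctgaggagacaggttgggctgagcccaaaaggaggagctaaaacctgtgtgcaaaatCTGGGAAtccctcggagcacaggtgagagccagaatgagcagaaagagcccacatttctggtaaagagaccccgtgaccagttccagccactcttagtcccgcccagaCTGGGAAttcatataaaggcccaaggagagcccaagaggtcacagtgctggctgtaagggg
Fga promoter, chr2:170671919-170672168, plus strand: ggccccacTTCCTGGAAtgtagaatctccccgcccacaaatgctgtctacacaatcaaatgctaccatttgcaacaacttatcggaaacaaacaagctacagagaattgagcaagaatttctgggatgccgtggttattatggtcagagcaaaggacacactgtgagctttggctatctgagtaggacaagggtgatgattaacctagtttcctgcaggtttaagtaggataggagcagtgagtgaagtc
Fgb promoter, chr2:170700876-170701125, minus strand: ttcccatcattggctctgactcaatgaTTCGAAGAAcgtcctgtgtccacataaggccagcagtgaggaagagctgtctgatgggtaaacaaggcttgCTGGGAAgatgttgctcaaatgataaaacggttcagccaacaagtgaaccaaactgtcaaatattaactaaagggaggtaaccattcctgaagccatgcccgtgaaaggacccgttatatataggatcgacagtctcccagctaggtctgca

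Levels are log2 signals relative to the array's own 75th percentile, so that 0 is that percentile and a difference of 1 is a doubling. The 4 arrays of slide 1, which held all male vehicle samples and male dexamethasone sample 1, were noisier than the other 8. On slide 1, 46.6% to 67% of spots were well above background and the median coefficient of variation of repeated spots was 21.2% to 30.6%, against 72.7% to 80.6% and 9.95% to 13% on the other 8 arrays. The lowest level called well above background was -4.60 to -3.37 on male vehicle arrays and -5.74 on male dexamethasone array 1. On the other 8 arrays it was -7.23 to -6.32, so counts above background also depend on the array. Fkbp5, a glucocorticoid target, rose by 2.93 in males and 2.84 in females (limma, adjusted p = 4.5e-05 and 5.3e-05). Obp3, which male rat liver makes, was above background on 6 of 6 arrays titled male and on 0 of 6 titled female. All 12 hepatocyte markers measured were above background on every array, and no member's spot was saturated. Male arrays numbered 3 stand apart for A2m, so the differences of its first probe are given with and without them. That choice was made after the A2m values were seen, and leaving out outlying arrays lowers the SE. The p-values without them are therefore descriptive and no separate support. Correlations and shares of spread are given with all arrays only.

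A2m had by far the largest response of the 10 genes. Its first probe read 6.92, 7.83 and 4.16 on the male dexamethasone arrays numbered 1 to 3, against 2.45, 2.59 and -2.36 on the male vehicle arrays. The male groups did not overlap, and the array numbered 3 was the lowest of each, with the male vehicle array numbered 3 the lowest of all 12. In females the probe read 7.64, 7.73 and 7.85 on the dexamethasone arrays, against 5.06, 5.25 and 4.96 on the vehicle arrays. These groups were tight and far apart.

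A2m rose in males by 5.41 ± 1.20 (SE, n = 3 arrays a group), or 42.5-fold, with an adjusted p of 0.02 by limma over the 30977 probes tested. In females the difference was 2.65 ± 1.20, or 6.27-fold, and did not pass (adjusted p = 0.3). That SE is shared by all 4 groups, and the spread within groups was 2.82 in male vehicle and 1.91 in male dexamethasone, but 0.10 in female dexamethasone and 0.15 in female vehicle (SD, n = 3 each). With the replicate number as a block, the SE was 0.35 and A2m passed in both sexes (adjusted p = 0.0018 in males and 0.013 in females). Without male vehicle sample 3 alone the male difference was 3.78, and without male dexamethasone sample 3 alone it was 6.48 (adjusted p = 0.017 for both). Without both male arrays numbered 3, left out after the values were seen, the differences were 4.86 (adjusted p = 0.00076) in males and 2.65 (adjusted p = 0.0011) in females.

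The second A2m probe gave the same order of groups. It read 2.38, 3.73 and -1.0 on the male dexamethasone arrays, against -1.97, -2.31 and -5.79 on the male vehicle arrays. In females it read 3.56, 4.12 and 3.77 with dexamethasone, against 0.21, 0.65 and -0.17 with vehicle. The dexamethasone arrays were all above the vehicle arrays of their sex, and the male vehicle array numbered 3 was below background. The probe rose in males by 5.06 ± 1.15 (adjusted p = 0.022), and its difference of 3.59 ± 1.15 in females did not pass without the replicate block and passed with it (adjusted p = 0.12 and 0.004). Over the 12 arrays, the within-group deviations of the 2 probes correlated at r = 0.96, which rests mainly on the male arrays numbered 3.

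Taken number by number, dexamethasone minus vehicle for the first A2m probe was 4.48, 5.24 and 6.52 in males and 2.58, 2.48 and 2.89 in females. All 3 male differences were larger than all 3 female differences. The difference between the sexes' responses, females minus males, was -2.76 ± 1.70 and did not pass (adjusted p = 0.59, and 0.11 with the replicate block). Without both male arrays numbered 3 it was -2.21 ± 0.36 (adjusted p = 0.036), while the second probe then gave -1.61 (adjusted p = 0.23). Those arrays were left out because of their A2m values, so that p-value cannot decide whether the sexes differ in response. The male call was lost without male dexamethasone sample 1 or 2 (adjusted p = 0.055 and 0.074) and with slide as a term (difference 6.03, adjusted p = 0.14).

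The summed level of the 12 hepatocyte markers, as a multiple of the 75th percentile, was 1070 to 1310 on male dexamethasone arrays and 1150 to 1650 on male vehicle arrays. In females it was 1030 to 1170 with dexamethasone and 818 to 1030 with vehicle. In samples of many cells, fewer cells of a type and less RNA per cell cannot be told apart. Of 10 stellate cell and fibroblast markers measured, the 9 with a value on all 12 arrays summed to 11.4, 8.35 and 9.59 on male dexamethasone arrays numbered 1 to 3, against 9.15, 6.93 and 7.16 on male vehicle arrays. Of these 9, 8 were above background on all male dexamethasone arrays and 6 on all male vehicle arrays, with 2 on none of the male vehicle arrays. A higher level was needed to be called on the male vehicle arrays, so these counts do not compare levels. The other marker, Tagln, read 7.15, 5.03 and 6.71 on male dexamethasone arrays, against 5.30 and 7.10 on male vehicle arrays 2 and 3, and its spot on array 1 was marked as an outlier and left out. Their part in the A2m result was not tested.

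**Figure D1:**
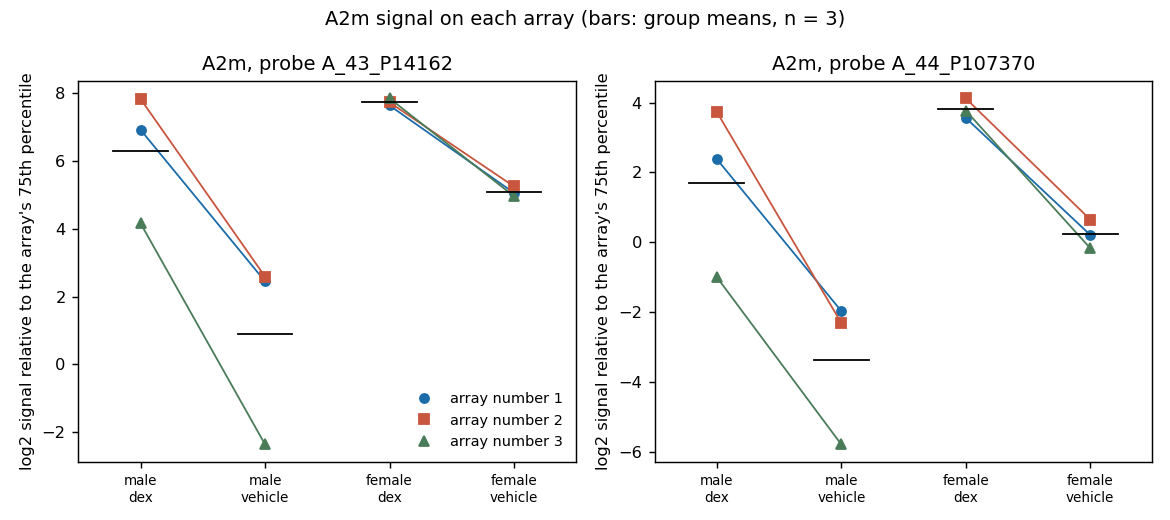
Log2 signal of the 2 A2m probes relative to the array's 75th percentile (vertical axis) in the 4 groups (horizontal axis). Points are arrays, marked by replicate number and joined between dexamethasone and vehicle of the same sex and number, and bars are group means (n = 3). Every line falls to the right within a sex, and the male arrays numbered 3 are the lowest of their groups for both probes.

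The 3 fibrinogen chains, whose products join into the clotting protein fibrinogen, did not follow A2m. Fga, the alpha chain, read 7.74, 8.27 and 7.78 on male dexamethasone arrays, against 6.71, 8.52 and 7.73 on male vehicle arrays. Fgg, the gamma chain, read 8.22, 8.71 and 7.88 on its brighter probe with dexamethasone, against 7.47, 8.42 and 7.86 with vehicle in males. Both overlapped between groups, with male differences of 0.28 ± 0.41 for Fga and 0.35 ± 0.30 for Fgg (adjusted p = 0.71 and 0.49). In females the differences were 0.19 ± 0.41 for Fga and 0.20 ± 0.30 for Fgg (adjusted p = 0.92 and 0.86).

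The brightest Fgb probe, A_43_P10037, was the only other representative of a member to pass. It read 8.55, 8.56 and 8.44 on male dexamethasone arrays, against 9.12, 9.36 and 9.25 on male vehicle arrays, with no overlap. It fell by 0.73 in males (SE 0.17, adjusted p = 0.022). With slide as a term its male difference was -0.70 and did not pass (adjusted p = 0.2). In females it read 8.32, 8.43 and 8.45 with dexamethasone, against 8.21, 8.79 and 8.39 with vehicle, which overlapped (difference -0.06 ± 0.17, adjusted p = 0.94).

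The other Fgb probes did not show this fall. Probe A_44_P1044835 read 8.37, 8.83 and 8.51 in male dexamethasone, against 8.22, 9.26 and 8.55 in male vehicle (difference -0.10 ± 0.28, adjusted p = 0.84). Probe A_44_P226859 read 2.23, 5.61 and 3.37 in male dexamethasone, against 1.38, 4.48 and 2.11 in male vehicle. It was higher for all 3 numbers (difference 1.08 ± 0.97, adjusted p = 0.52), and passed as a rise with the replicate block (adjusted p = 0.035). The probes of Fgb therefore disagreed in direction, and the fall of the brightest was -0.30 with an adjusted p of 0.17 when arrays were quantile-normalized.

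Hpx, which encodes the haem carrier hemopexin, read 8.83, 8.68 and 8.54 on male dexamethasone arrays, against 9.48, 9.31 and 8.93 on male vehicle arrays. The groups did not overlap, and the difference of -0.56 ± 0.19 missed the threshold (adjusted p = 0.082) but passed with the replicate block (adjusted p = 0.037). With quantile normalization it was -0.04 (adjusted p = 0.88), and with slide as a term -0.41 (adjusted p = 0.49). In females Hpx read 8.55, 8.79 and 8.72 with dexamethasone, against 8.40, 8.79 and 8.38 with vehicle, a difference of 0.16 ± 0.19 (adjusted p = 0.79).

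Orm1, which encodes alpha-1-acid glycoprotein, a drug and lipid carrier of plasma that glucocorticoids are known to raise in rat liver, read 8.07, 8.34 and 7.86 on male dexamethasone arrays, against 8.35, 8.08 and 7.84 on male vehicle arrays. The 2 male groups covered nearly the same range (difference 0.00 ± 0.19, adjusted p = 0.99). Female arrays read 7.67, 7.95 and 7.92 with dexamethasone, against 7.47, 7.77 and 7.45 with vehicle. It was higher with dexamethasone for all 3 numbers there, but the groups overlapped and the difference of 0.29 ± 0.19 did not pass (adjusted p = 0.54).

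Hp read 8.76, 8.62 and 8.62 on its brighter probe in male dexamethasone, against 9.01, 9.17 and 8.57 in male vehicle. Female arrays read 8.31, 8.57 and 8.37 with dexamethasone, against 8.27, 8.92 and 8.29 with vehicle. Both pairs of groups overlapped, with differences of -0.24 ± 0.21 and -0.07 ± 0.21 (adjusted p = 0.51 and 0.94). The probe with GTGAGT differed by 0.20 ± 0.45 in males and 0.34 ± 0.45 in females (adjusted p = 0.82 and 0.83). Its within-group deviations correlated at r = 0.39 with those of the brighter Hp probe and at r = 0.95 with those of Lbp.

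Crp, the C-reactive protein gene, whose product binds bacterial and dying cell surfaces, was higher with dexamethasone for all 3 numbers in both sexes on both of its probes. The brighter probe read 1.27, 2.81 and 0.99 in male dexamethasone, against 1.18, 1.61 and 0.94 in male vehicle. In females it read 2.70, 3.11 and 3.08 with dexamethasone, against 2.11, 2.52 and 2.28 with vehicle. The female groups did not overlap and the male groups did. The differences were 0.44 ± 0.40 in males and 0.66 ± 0.40 in females and neither passed (adjusted p = 0.52 and 0.48), and the second probe gave 0.74 ± 0.43 and 0.77 ± 0.43 (adjusted p = 0.3 and 0.44).

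Lbp, which encodes the plasma protein that hands bacterial lipopolysaccharide to CD14, was also higher for all 3 numbers in both sexes, by 0.65, 0.10 and 0.36 in males and by 0.16, 0.14 and 0.32 in females. All 3 same-numbered differences were higher for 19.5% of all probes in males and 27.5% in females. Lbp read 4.83, 5.93 and 4.78 in male dexamethasone, against 4.18, 5.83 and 4.42 in male vehicle. It read 4.89, 5.66 and 5.34 in female dexamethasone, against 4.72, 5.52 and 5.03 in female vehicle. The groups overlapped in both sexes, and the array numbered 2 was the highest of each (adjusted p = 0.64 in males and 0.92 in females).

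Cp read 3.67, 5.03 and 3.69 on its brightest probe in male dexamethasone, against 3.21, 4.76 and 3.91 in male vehicle. Female arrays read 4.04, 4.62 and 4.52 with dexamethasone, against 3.86, 4.61 and 4.27 with vehicle. Differences were 0.17 ± 0.44 and 0.15 ± 0.44 (adjusted p = 0.84 and 0.94), with overlap in both sexes. Of the overlapping pair, A_44_P404836 differed in males by 0.53 ± 0.44 (adjusted p = 0.47) and A_43_P11448 by 1.05 ± 0.51 (adjusted p = 0.22, and 0.014 with the replicate block). A probe with the name Cp in the files that lies in the opposite orientation and is described as bilitranslocase was not used for the gene. Its levels spanned -3.23 to -2.52 over the 12 arrays, and its within-group deviations correlated at r = 0.06 with those of the brightest Cp probe.

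**Figure D2:**
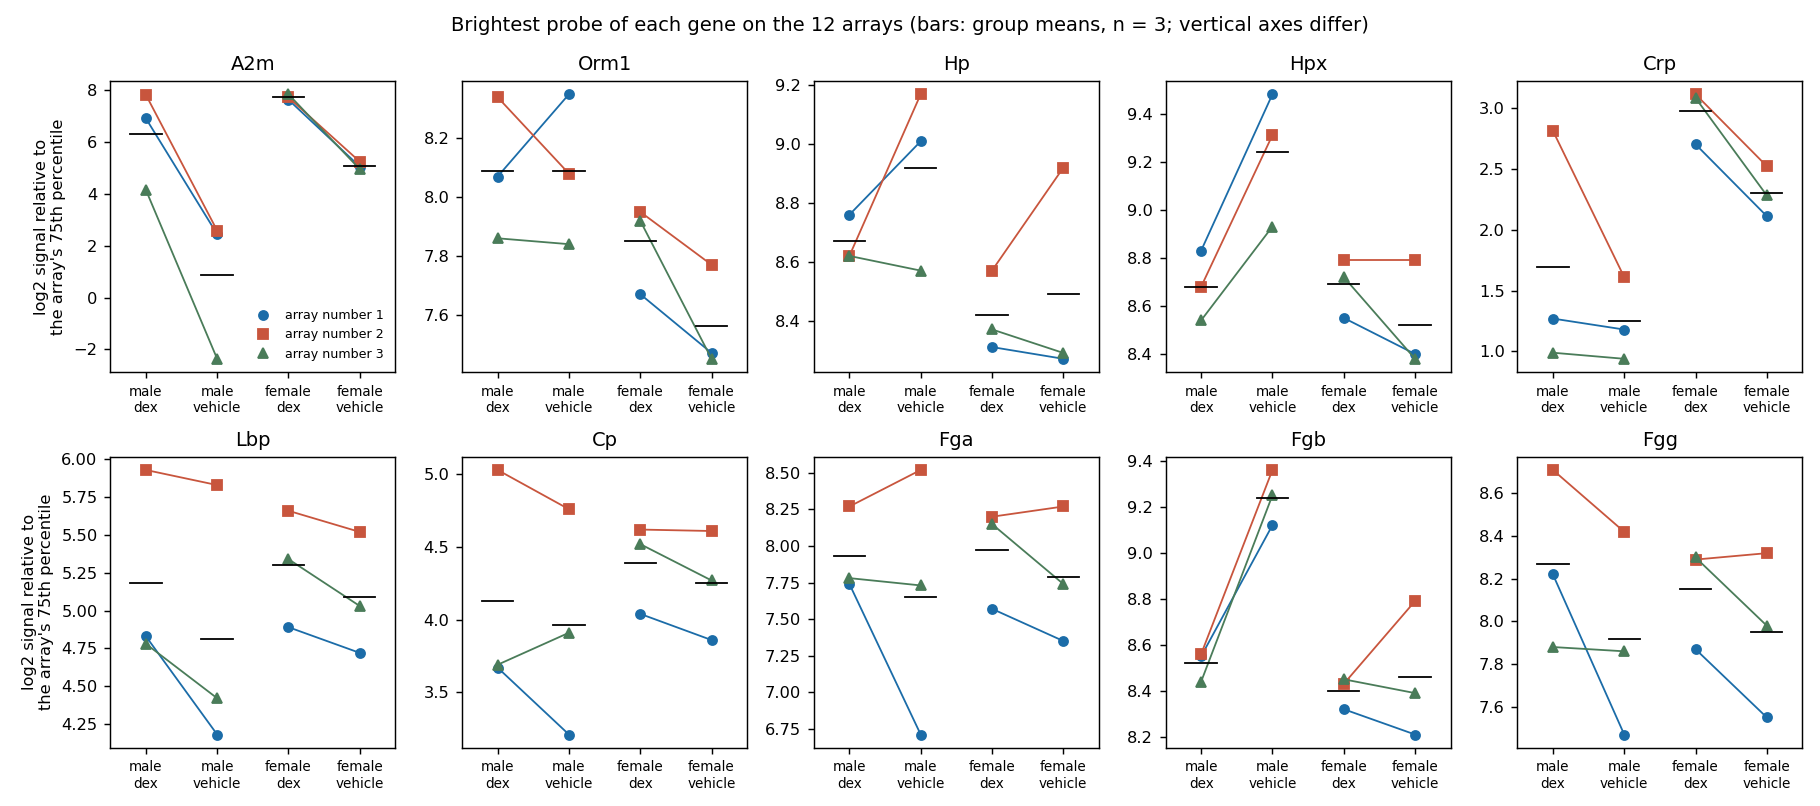
Log2 signal of the brightest probe of each of the 10 genes relative to the array's 75th percentile (vertical axes, which differ in range) in the 4 groups (horizontal axes). Points are arrays, marked and joined by replicate number, and bars are group means (n = 3). A2m spans from -2.36 to 7.85, and the arrays numbered 2 are the highest of their group for most of the genes.

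By the brightest probe of each gene, 2 of the 10 genes passed in males, A2m higher and Fgb lower, where 10.2% of all probes passed. In females 0 of the 10 passed by limma, where 3.82% of all probes did, and 1 of the 10 had an unadjusted p under 0.05. With the replicate block, 3 of 10 passed in males (A2m higher, Fgb and Hpx lower, with 15.8% of all probes) and 1 of 10 in females (A2m, with 6.45%). The median difference of the 10 genes was 0.22 in males and 0.20 in females, beside -0.06 and -0.02 over all probes. The arrays did not overlap between groups for 3 genes in males (A2m higher, Hpx and Fgb lower) and for 2 in females (A2m and Crp higher), with 25.5% and 33.4% of all probes. The difference between the sexes' responses passed for 0 of 10 by limma, with 0.107% of all probes and 2 of the 10 at an unadjusted p under 0.05.

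**Figure D3:**
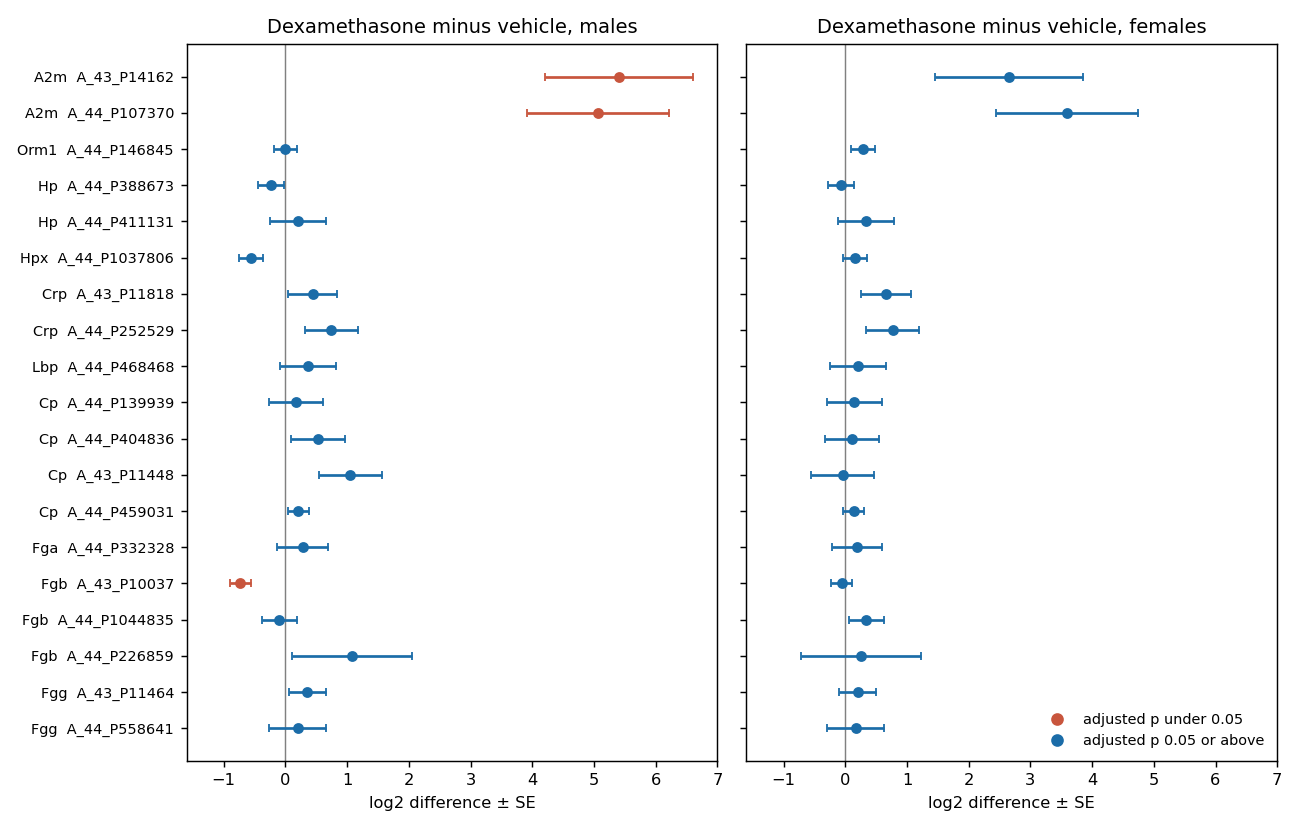
Dexamethasone minus vehicle as a log2 difference with its SE from limma (horizontal axis) for the 19 probes (vertical axis), in males on the left and females on the right. Red points passed an adjusted p of 0.05. The 2 A2m probes lie between 2.65 and 5.41 and the other 17 between -0.73 and 1.08, and the Fgb probes lie on both sides of 0 in males.

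Between the sexes in vehicle, A2m was the only gene of the 10 that passed as higher in females, and Fgb and Hpx passed as lower. A2m read 5.06, 5.25 and 4.96 in female vehicle, against 2.45, 2.59 and -2.36 in male vehicle. The difference was 4.20 ± 1.20 (adjusted p = 0.041) with all arrays. It was 2.57 ± 0.25 (adjusted p = 0.0019) without both male arrays numbered 3, left out after the values were seen. The second probe gave 3.58 ± 1.15 (adjusted p = 0.062, and 0.041 with the replicate block). Leaving out single arrays, the A2m call held in 4 of 12 cases (adjusted p = 0.033 to 0.1), and without male vehicle sample 3 alone the difference was 2.57 (adjusted p = 0.056).

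Fgb was lower in female vehicle than in male vehicle by its brightest probe (difference -0.78 ± 0.17, adjusted p = 0.013), and Hpx likewise (-0.72 ± 0.19, adjusted p = 0.029). Neither passed with quantile normalization (-0.13, adjusted p = 0.53, and -0.04, adjusted p = 0.85), and the other Fgb probes differed by -0.32 and -0.16 (adjusted p = 0.47 and 0.93). Crp averaged 2.30 ± 0.21 in female vehicle and 1.25 ± 0.34 in male vehicle (SD, n = 3 each), with no overlap and a difference of 1.06 ± 0.40 that did not pass (adjusted p = 0.1). Its second probe differed by 1.37 ± 0.43 (adjusted p = 0.058, and 0.044 with the replicate block). In all, 3 of the 10 genes passed in vehicle, where 14% of all probes did. Arrays did not overlap between the sexes for 5 of the 10 genes and for 31.3% of all probes.

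No slide held both female and male vehicle arrays, or both female and male dexamethasone arrays, so within a slide the sexes cannot be told apart from the slide. With slide as a term, fitted through the other groups, A2m differed by 5.19 (adjusted p = 0.35) in vehicle, and none of the 3 calls passed. The same 9 stellate cell and fibroblast markers summed to 13.4 to 20.3 in female vehicle, against 6.93 to 9.15 in male vehicle, and 6 of the 10 measured passed as higher in females. Endothelial markers summed to 16.4 to 36.1 in female vehicle and 8.91 to 11.8 in male vehicle. Fcgr2b made up most of each sum, and read 3.77, 5.03 and 4.60 in female vehicle, against 3.08, 2.88 and 3.28 in male vehicle. Of the 10 endothelial markers measured, 3 passed as higher in females and 1 as lower, where 14% of all probes passed. All 10 were above background on all female vehicle arrays and 3 of 10 on all male vehicle arrays. The 8 of 9 cholangiocyte markers with a value on all 12 arrays summed to 12.6 to 25.9 in female vehicle and 3.44 to 7.79 in male vehicle, with 8 and 3 of them above background on all arrays of the group. Spp1 made up most of each female vehicle sum, and averaged 3.67 in female vehicle and 1.82 in male vehicle. The cholangiocyte marker left out of the sums, Epcam, went the other way. It read 2.57 and 1.42 on male vehicle arrays 2 and 3, against 1.07, 0.74 and 0.99 in female vehicle. Of the 9 cholangiocyte markers measured, 2 passed as higher in females and 1 as lower. A higher level was needed to be called above background on male than on female vehicle arrays, so the counts above background do not compare levels. The part of these markers in the sex differences was not tested.

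With dexamethasone the sexes lay closer for A2m, which averaged 7.74 ± 0.10 in female dexamethasone and 6.30 ± 1.91 in male dexamethasone (SD, n = 3 each). The difference of 1.44 ± 1.20 did not pass (adjusted p = 0.58), and the groups overlapped. Without both male arrays numbered 3 it was 0.36 ± 0.25 (adjusted p = 0.5). In this comparison 0 of the 10 genes passed by limma, where 2.99% of all probes did, with 1 at an unadjusted p under 0.05. Arrays did not overlap for 1 of the 10, Hp, which was lower in females, where 32.2% of all probes did not. Crp differed by 1.28 ± 0.40 (adjusted p = 0.11) and Hpx by 0.00 ± 0.19 (adjusted p = 1).

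The members also varied together by replicate number within groups. The array numbered 2 was the highest of its group for 8 of the 10 genes in male dexamethasone, 8 in male vehicle, 7 in female dexamethasone and 10 in female vehicle. Over all probes it was the highest for 32.3%, 31.8%, 26.3% and 41.1% in the same groups. The share of within-group spread that same-numbered arrays of a sex had in common was 81.6% in males and 86.1% in females as a median over the 10 genes, beside 62.3% and 71.8% over all probes. For A2m it was 95.4% in males, with a within-group SD of 2.41, and 30.7% in females, with an SD of 0.13.

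Lbp, Cp, Fga and Fgg formed the tightest set. Their within-group deviations over the 12 arrays correlated pairwise between r = 0.89 and r = 0.96. Fgb's brightest probe correlated with these 4 at r = 0.63 to 0.80, while Fgb probe A_44_P226859 correlated with Lbp at r = 0.94. Hp and Hpx correlated with each other at r = 0.88 and with Cp at r = 0.32 and 0.11. A2m correlated most with Orm1 (r = 0.74) and Hpx (r = 0.70) and least with Fga (r = 0.08). Its SD was 2.82 in male vehicle and 1.91 in male dexamethasone, against 0.15 and 0.10 in the female groups. The A2m correlations therefore rest mainly on the male arrays, those numbered 3 most of all. The points share the scaling of each array and the replicate numbers, and the set was picked after its values were seen.

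Markers of Kupffer cells, the liver's resident macrophages, moved with the same arrays. The 14 markers measured summed to 63.7, 126 and 66.3 on male dexamethasone arrays numbered 1 to 3, and to 56.2, 110 and 65.5 on male vehicle arrays. They summed to 70.8, 148 and 115 in female dexamethasone, and to 59.8, 122 and 91.0 in female vehicle. The array numbered 2 was highest for 12, 13, 13 and 13 of the 14 in the groups as listed, and for 8, 8, 6 and 6 of the 12 hepatocyte markers. All 14 were above background on all arrays of 3 groups, and in male vehicle 13 were and 1 was on none. Their part in the shared spread of the acute phase genes was not tested. By limma 0 of the 14 passed for dexamethasone in either sex, where 10.2% of all probes passed in males and 3.82% in females. At an unadjusted p under 0.05 there were 1 in males and 0 in females. With the replicate block 2 in males and 1 in females passed as higher, where 15.8% and 6.45% of all probes passed in either direction.

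Genes of the signalling that drives the acute phase moved in both directions. Of 20 cytokine and receptor genes measured, 4 rose and 6 fell in males, and 4 rose and 4 fell in females, where 10.2% and 3.82% of all probes passed. The 4 that rose were the same genes in both sexes, Il6r, Il6st, Il1r1 and Il1r2. The list's median was -0.30 in males and -0.17 in females, beside -0.06 and -0.02 over all probes.

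Il6r, the interleukin-6 receptor, read 3.09, 3.50 and 3.00 in male dexamethasone, against 0.34, 0.97 and -0.52 in male vehicle. In females it read 1.82, 2.30 and 2.10 with dexamethasone, against -0.12, -2.26 and -0.27 with vehicle. Neither sex overlapped between groups, and Il6r rose by 2.93 ± 0.52 in males and 2.96 ± 0.52 in females (adjusted p = 0.0082 and 0.013). Il6st, the signalling subunit that Il6r pairs with, rose by 1.82 ± 0.29 and 1.42 ± 0.29 (adjusted p = 0.0053 and 0.026). Il1r2, a decoy receptor that binds interleukin-1 without signalling, rose by 5.04 ± 0.49 and 3.39 ± 0.49 (adjusted p = 0.0005 and 0.0047), with 1 of 3 male vehicle arrays above background, and Il1r1, the signalling receptor, by 1.53 ± 0.22 and 1.13 ± 0.22.

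Il1b, the interleukin-1 beta gene, read -3.91, -3.18 and -4.69 in male dexamethasone, against 0.81 and 1.08 on male vehicle arrays 1 and 3. The spot on male vehicle array 2 was marked as an outlier and left out, so the fit used 2 male vehicle arrays. In females Il1b read -3.80, -3.27 and -3.42 with dexamethasone, against 1.59, 1.98 and 1.21 with vehicle. It fell by 4.87 in males and by 5.09 in females (SE 0.39 and 0.35, adjusted p = 0.00025 and 0.0001). Il1a, interleukin-1 alpha, fell by 3.51 and by 3.31 (adjusted p = 0.00091 and 0.0014). It was above background on 2 of 3 arrays in male dexamethasone, male vehicle and female dexamethasone, and on 3 of 3 in female vehicle. The sizes of its falls therefore include readings not above background. Il6 fell by 2.07 in females (adjusted p = 0.0028), where it was above background on 1 of 3 dexamethasone arrays and 3 of 3 vehicle arrays. In males Il6 was above background on 1 dexamethasone array and on 0 vehicle arrays, and Il11 passed as lower without any array above background in the male groups, so no fold is given for them.

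**Figure D4:**
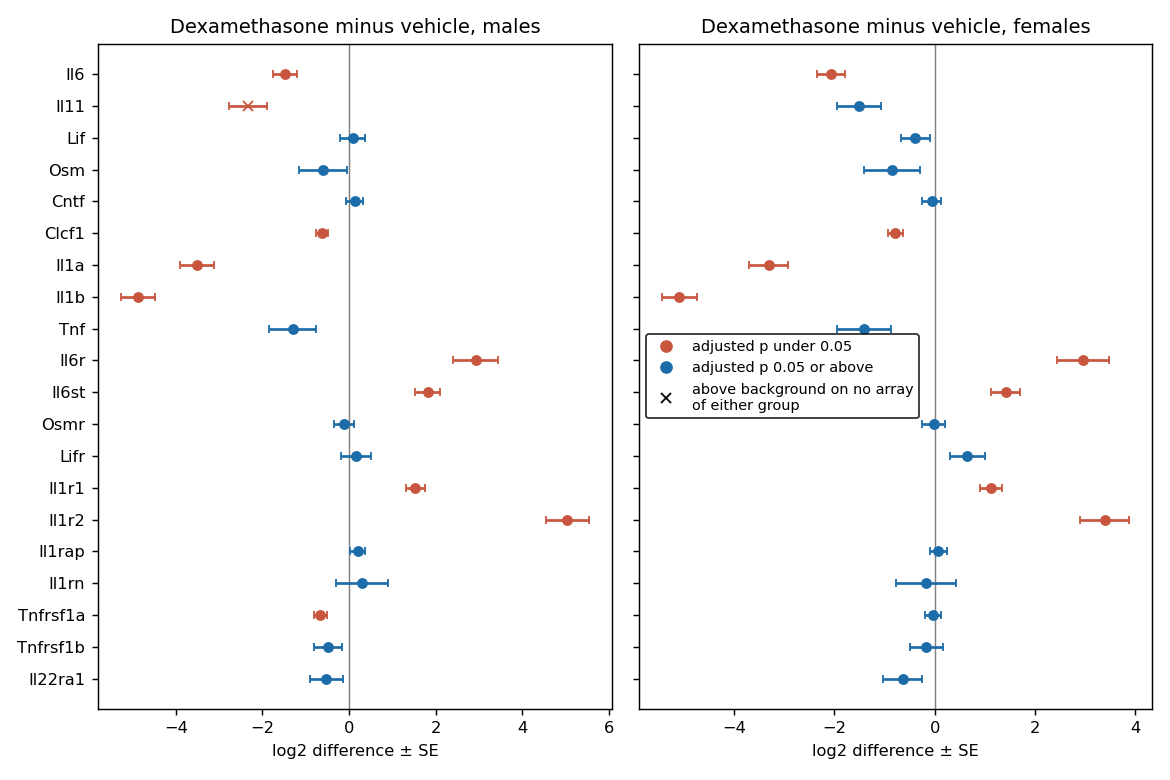
Dexamethasone minus vehicle as a log2 difference with its SE from limma (horizontal axis) for 20 cytokine and receptor genes (vertical axis), in males on the left and females on the right. Red symbols passed an adjusted p of 0.05, and a cross marks a gene that neither group measured above background. Il1b and Il1a lie farthest to the left and Il1r2 and Il6r farthest to the right in both sexes.

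Of 27 transcription factor and feedback genes measured, 4 rose and 2 fell in males (8 and 3 with the replicate block), and 1 rose and 0 fell in females (2 and 1 with the block). Of all probes, 10.2% passed in males and 3.82% in females, and 15.8% and 6.45% with the block. Cebpd, a C/EBP factor of the acute phase, rose by 1.02 ± 0.26 in males (adjusted p = 0.032), and Stat3, named after its values were seen, by 0.77 ± 0.20 (adjusted p = 0.034). Socs1, a feedback inhibitor of cytokine signalling, was at least 1.10-fold higher in male dexamethasone (adjusted p = 0.035), with no male vehicle array above background. Fos, an AP-1 subunit, passed as higher (adjusted p = 0.015), also with no male vehicle array above background. The NF-kappaB subunits Nfkb1 and Rela fell by 0.82 and by 0.78 in males (adjusted p = 0.023 and 0.042). Nfkbia, which encodes their inhibitor, rose by 1.11 ± 0.25 in females (adjusted p = 0.038). None of the genes called in males passed in females by this fit, but their means moved the same way. Female dexamethasone and vehicle arrays averaged 7.19 and 6.30 for Cebpd, and 4.40 and 3.87 for Stat3. They averaged 2.56 and 3.18 for Nfkb1, and 2.71 and 3.20 for Rela. Nfkbia averaged 4.71 and 4.27 in males and did not pass there. For the difference between the sexes' responses 0 of the 27 passed.

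Of 27 other positive acute phase genes measured, 3 rose and 0 fell in males, and 2 rose and 0 fell in females (4 and 0 with the replicate block), where 10.2% and 3.82% of all probes passed. The list's medians were -0.05 in males and 0.13 in females. Hamp, which encodes the iron hormone hepcidin, rose by 1.35 ± 0.19 in males and 1.57 ± 0.19 in females (adjusted p = 0.0025 and 0.0014). Mt1, the metal-binding metallothionein, rose by 1.38 ± 0.39 and 1.85 ± 0.39 (adjusted p = 0.047 and 0.026). Of 24 macroglobulin and protease inhibitor genes measured, 1 rose and 0 fell in males. In females 0 of those 24 passed by limma, with 2 at an unadjusted p under 0.05.

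Of 19 negative acute phase genes measured, plasma proteins whose production drops in inflammation, 0 passed in either sex by limma, with 1 in males and 4 in females at an unadjusted p under 0.05. The smallest p in females was that of Apoa1, the main protein of high-density lipoprotein, with a difference of 1.08 ± 0.27 (adjusted p = 0.054, and 0.016 with the replicate block). In males it was that of Afm, the vitamin E carrier afamin, with 0.79 (adjusted p = 0.13), fitted without male vehicle array 3, whose spot was marked as an outlier. Of 22 receptors and partners of the 10 proteins, 0 passed in males or females by limma, with 3 and 1 at an unadjusted p under 0.05. With the replicate block, 1 rose and 3 fell in males and 0 rose and 2 fell in females, where 15.8% and 6.45% of all probes passed. The smallest p in both sexes was that of Plau, the urokinase gene, with -1.43 ± 0.43 and -1.41 ± 0.43 (adjusted p = 0.059 and 0.11). No gene of these 6 lists passed for the difference between the sexes' responses.

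In vehicle, 6 of the 27 positive acute phase genes and 5 of the 19 negative ones were lower in females, and 0 of either list were higher. Of all probes 14% passed there, 1937 higher and 2394 lower. Serpina3m and Serpina3c, members of the alpha-1-antichymotrypsin family, differed by -2.56 ± 0.23 and -1.40 ± 0.41 (adjusted p = 0.00022 and 0.044). These family members are near copies of each other, so their probes may share target RNA. Hrg, histidine-rich glycoprotein, and Apoa4, an apolipoprotein, differed by -2.02 ± 0.41 and -1.75 ± 0.24 (adjusted p = 0.011 and 0.0021). In dexamethasone, where 2.99% of all probes passed, 3 of 27 and 3 of 19 were lower in females and 0 were higher. Serpina3m differed by -2.10 and Vnn1, the vanin pantetheinase, by -1.33 (adjusted p = 0.0012 and 0.032). Afm and Apoa4 differed there by -1.78 and -1.13 (adjusted p = 0.011 and 0.034).

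Of the 24 macroglobulin and protease inhibitor genes, 4 were lower in females in vehicle and 1 with dexamethasone, Serpina3m leading in both, and 0 were higher. For this and the lists that follow, 14% of all probes passed in vehicle and 2.99% with dexamethasone. Of the 20 cytokine and receptor genes, Il1r2 was higher (2.38 ± 0.49, adjusted p = 0.012) and Tnfrsf1a, a tumour necrosis factor receptor, lower (-0.61 ± 0.16, adjusted p = 0.028) in female vehicle. With dexamethasone Lifr, the leukaemia inhibitory factor receptor, was higher in females (1.61 ± 0.35, adjusted p = 0.035). Of the 27 transcription factor and feedback genes, Fos passed as higher and Nfkbia as lower in female vehicle (adjusted p = 0.027 and 0.041). Fos was above background on 0 of 3 male vehicle arrays. Its female vehicle mean of -4.13 lay between the lowest levels called on those arrays (-4.60 to -3.37), so no fold is given. With dexamethasone 0 of the 27 passed by limma, with 5 at an unadjusted p under 0.05. Of the 22 receptors and partners, 4 were higher and 1 lower in female vehicle, among them Itgam, an integrin subunit of myeloid cells that binds fibrinogen (2.78 ± 0.56, adjusted p = 0.01, with 1 of 3 male vehicle arrays above background), Heph, a ferroxidase related to Cp (at least 2.21-fold higher, adjusted p = 0.032), and Plg, plasminogen (-1.31 ± 0.31, adjusted p = 0.02). With dexamethasone 1 was higher, Plat, the tissue plasminogen activator (1.39 ± 0.19, adjusted p = 0.0055), and 0 were lower.

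The genes whose levels over the 12 arrays were most like A2m among 16104 probes of other named genes were Cxxc5 (Pearson r = 0.954), Mical2 (0.953), Adamtsl4 (0.950), Gpsm2 (0.949), Cpeb4 (0.943) and C1qtnf4 (0.939). Mical2 read -1.79, -1.15 and -1.97 in male dexamethasone, against -2.53, -3.06 and -3.44 in male vehicle, so its male groups did not overlap either. For Fgb, the member with the next called response, they included Cars2 (0.947), Rplp1 (0.944), Gabbr2 (0.938) and Psme2 (0.937). These likenesses include the differences between groups and the scaling that all probes of an array share.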

How the data were processed

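Each sample had 1 Agilent 1-colour array. The deposited scanner files hold spot intensity values (gProcessedSignal) that the authors made with Agilent Feature Extraction 9.5.3.1, per the file headers (9.5 per the submitters' processing notes). The deposited value table holds the same intensity values (540216 of 540216 equal to within 1e-06 relative) and gave nothing further. Control spots and spots marked as outliers were left out, spots of 1 probe were averaged, and the log2 of each deposited intensity was set relative to the array's 75th percentile. Of 41012 probes, the 30977 that some group had well above background on each of its 3 arrays were tested. All 4 groups entered 1 limma model (limma 3.58.1, R 4.3.3), with 2-sided p-values adjusted by Benjamini and Hochberg over all probes tested and a threshold of 0.05 for each of 5 contrasts. All adjusted p-values in the text are limma's. The number of arrays, 3 a group, limits the precision.

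A gene stands by its probe with the highest mean signal. RefSeq names replaced the file's names for 19880 probes, and 21132 kept them. The members and the gene lists were chosen with earlier results of these data known. Named list genes are up to 3 rises and 3 falls per list in the dexamethasone comparisons and 2 of each in the sex comparisons, with the largest difference first, and others are said to be named later. A few genes that this rule or the likeness to a member would name are not reported here. Replicate numbers were treated as pairing samples, since deviations from group means of same-numbered samples of a sex correlated at 0.27 to 0.46 in all 6 pairs. The block was fixed within a sex for dexamethasone and random between sexes. The model was tested on simulated data with known changes. Alternatives covered scaling, background correction, filters, blocks, weights and left-out arrays.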

Additional observations from a re-analysis of the deposited data

How the results depend on the processing

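The counts below are of the 10 acute phase genes that passed by limma, against 2 in males, 0 in females, 0 for the difference of responses, 3 between the sexes in vehicle and 0 with dexamethasone. In males the count was 1 with quantile normalization, with the median of a gene's probes and without both male arrays numbered 3 (an alternative chosen after seeing the data), and 0 with slide as a block, with only the groups compared, with array weights and within slide 1. In females it was 1, A2m, with the replicate block, with only the groups compared, with array weights, without both male arrays numbered 3 and within slide 3. The difference of responses gave 1 without both male arrays numbered 3. Between the sexes in vehicle it was 1 with quantile normalization and with array weights, and 0 with slide as a block and with only the groups compared. With dexamethasone it was 1 with array weights. Leaving out single arrays gave 0 to 3 in males, 0 to 0 in females, 0 to 4 in vehicle and 0 to 1 with dexamethasone. No result changed direction past the threshold. The cause of these changes was not tested, except that a within-slide fit has fewer arrays.

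Over all probes, the calls in males numbered 3159, and 4904 with the replicate block, 12610 with no filter, 989 with array weights, 574 with slide as a block and 333 with only the groups compared. In females they numbered 1182, and 1999, 5319 with weights, 2978 with only the groups compared, 630 with quantile normalization, 577 when filtered on all 12 arrays and 309 with slide as a block. The sexes in vehicle gave 4331, and 14243 with no filter, 14108 with normexp, 2074 with weights, 1011 with only the groups compared and 176 with slide as a block. With dexamethasone they gave 927, and 4386 with weights, 604 with no filter and 36 with slide as a block. The difference of responses gave 33, and 7427 with no filter, 358 without both male arrays numbered 3, 320 with quantile normalization, 93 with weights, 15 with the array median, 4 with slide as a block or the 12-array filter, and 0 with the replicate block or normexp. Leaving out single arrays gave 1409 to 4159 in males, 354 to 1591 in females, 1970 to 5276 in vehicle, 205 to 1353 with dexamethasone and 0 to 664 for the difference of responses, with the 664 reached without male vehicle sample 3. The share of calls that were higher in males was 52.5%, and 67.2% with quantile normalization, 33.1% with the array median and 24% with normexp; in vehicle it was 44.7%, and 63.6% with quantile normalization and 13.3% with normexp. It was 73.4% in females and 62.5% with the array median, 69.7% for the difference of responses and 12.2% with quantile normalization, and 41% with dexamethasone and 23.9% with normexp.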
